A study of Homo sapiens with 4 samples.

Results

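The BCL2 family sets whether a cell commits to mitochondrial apoptosis, and 10 of its genes were followed in ACHN cells after PRR11 silencing. They were chosen by name from the 36359 genes of the count table, with earlier results of these data known. Among them are the pro-survival genes BCL2, BCL2L1 and MCL1 and the pore-forming effectors BAX and BAK1. The others are the BH3-only genes BBC3, PMAIP1, BCL2L11, BID and BIK. All 10 were present and all 10 were tested. ACHN is a human line derived from a renal cell carcinoma (RCC). Cells had been transfected by lipofection with negative control siRNA in 2 libraries (siNC) and with siRNA against PRR11 in 2 others (siPRR11), and no label gives the time after transfection or which siPRR11 duplex a library received. The line is a single one grown in culture, and no label states whether libraries of a group came from separate cultures, so p-values measure the spread between libraries, which may be technical.

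At the outer mitochondrial membrane, BAX and BAK1 assemble into pores that let cytochrome c escape and start the caspase cascade. Pro-survival proteins hold BAX and BAK1 and the BH3-only proteins in check, and the BH3-only proteins transmit stress by occupying the pro-survival proteins or by activating the effectors. BCL2L11 (BIM) is a classical target of FOXO transcription factors, and BBC3 (PUMA) and PMAIP1 (NOXA) are induced by many forms of stress. Much of the family is controlled after transcription, by splicing, phosphorylation and protein turnover, which gene counts do not record. The study assayed cleaved PARP and mitochondrial membrane potential in silenced RCC cells. It reported more cleaved PARP, and from its dye readout it proposed a reduced membrane potential. The mRNA levels below stand beside those protein and dye readouts as a separate measurement.

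The libraries held between 59003839 and 92612749 counted reads, of which the 10 members took between 0.0439% and 0.0522%. PRR11 was at 40.8 ± 0.636 CPM in siNC cells and 14.7 ± 0.911 CPM in siPRR11 cells (SD, n = 2 each), where CPM scales reads to a common library size with TMM factors, so the targeted gene was lower in both siPRR11 libraries as the labels state. Of 9 markers of the renal epithelial lineage or of RCC lines, 8 were expressed in every library, among them PAX8, KRT8 and VIM, while the hypoxia-linked marker CA9 held at most 3 counts. Of these 8, 3 passed the test described below. KRT19 and EPCAM were lower after silencing (log2 fold changes -0.70 and -0.65), and KRT18 was higher (0.36). Of 9 markers of blood, endothelial, liver and islet cells, 6 had too few counts to be tested, and the highest value of any was 1.54 CPM, for LYZ. Of the 21630 genes tested by edgeR's quasi-likelihood test, 16.7% passed an adjusted p of 0.05, with 7.61% higher and 9.14% lower after silencing, so that 45.4% of the calls were higher, a share that was 61.5% with limma on log2(RPKM + 1). Among the 14193 genes whose average log2 CPM was 1 or more, 23.1% passed edgeR's quasi-likelihood test. Fold changes below are siPRR11 over siNC from the same test, with their standard error (SE). In bulk RNA, fewer cells of a type and less RNA per cell cannot be told apart.

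Of the 10 members, 6 passed this threshold, against 16.7% of all genes, 4 of them higher and 2 lower in siPRR11 cells. Higher levels were found for the effector BAX, the BH3-only genes BBC3 and BCL2L11 and the pro-survival gene BCL2L1, and lower levels for the pro-survival gene BCL2 and the BH3-only gene BIK. BAK1, PMAIP1, MCL1 and BID did not pass. The median log2 fold change was 0.30 over the 10 members and 0.00 over all genes tested. In all 10 members the siNC and siPRR11 libraries did not overlap on the CPM scale, against 58.4% of all genes tested. On the RPKM scale deposited by the authors, which lacks the TMM factor, the groups overlapped for MCL1 and BID. The direction of change thus cut across the roles, with pro-survival and BH3-only genes in both directions.

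**Figure D1:**
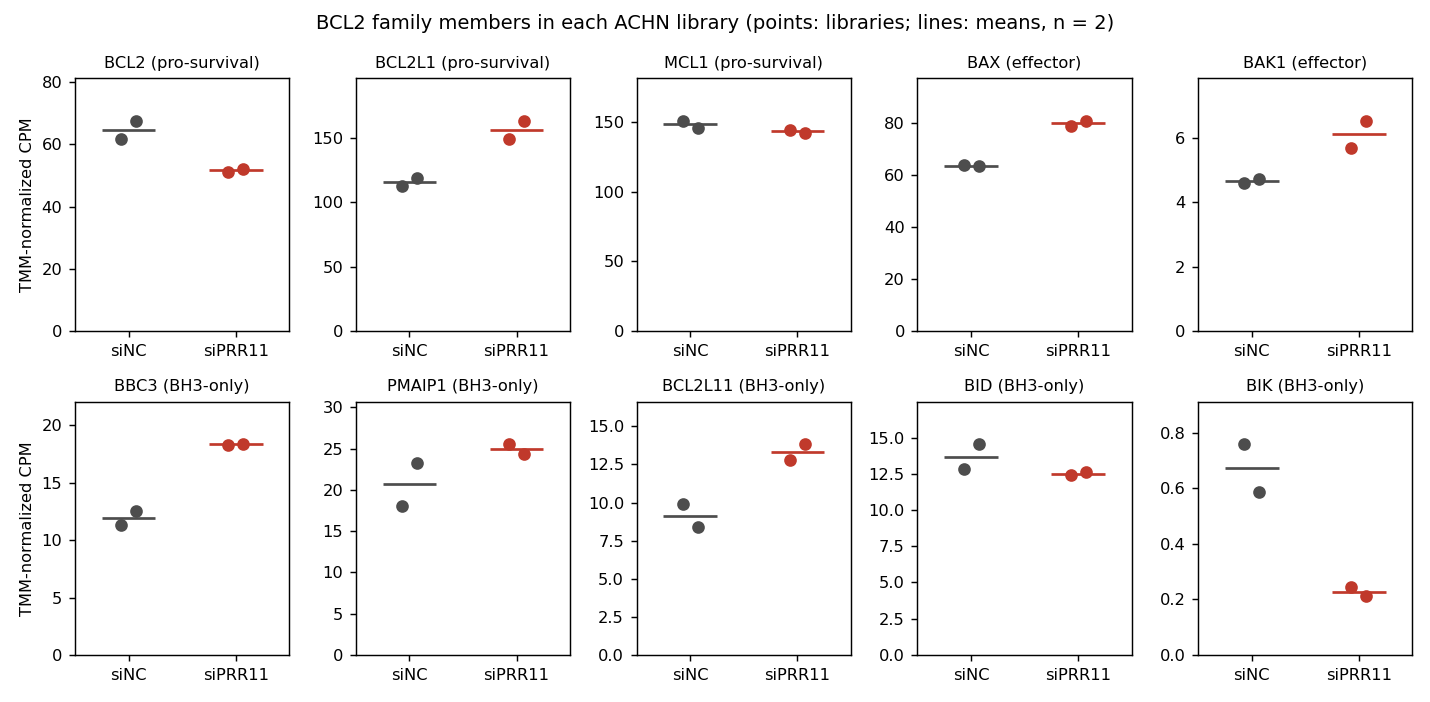
TMM-normalized CPM of each BCL2 family member in the 2 siNC and 2 siPRR11 libraries, with 1 panel per gene, points for libraries and a line at each group mean; every y axis starts at 0. BBC3, BCL2L11, BCL2L1 and BAX sit higher in both siPRR11 libraries, BCL2 and BIK sit lower, and MCL1 and BID show the smallest differences.

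The sequences before the annotated starts of the members were read from RefSeq, which gave 13 windows for 8 members (GRCh38.p14, MCL1 and BIK had none). Each window holds the 250 bases before a transcription start. Motifs were searched on both strands: GTAAACA (a FOXO motif), CACGTG (the E-box of MYC, USF and related factors), TGACGTCA (a CRE), TTTGGCGC (an E2F motif) and TGANTCA (an AP-1 motif). Neither the CRE nor the E2F motif was in a member window. Below are the 2 windows that showed the clearest matches to factors known in this pathway, a choice made after the windows had been read. The BCL2L11 window lies at chr2:111120664-111120913 on the plus strand and the BAX window at chr19:48954625-48954874 on the plus strand. The BCL2L11 window precedes a RefSeq start that lies inside the gene span of the count table, which begins at 111119378. Both read 5′ to 3′, and capitals mark the FOXO motif and the E-boxes, respectively.
BCL2L11: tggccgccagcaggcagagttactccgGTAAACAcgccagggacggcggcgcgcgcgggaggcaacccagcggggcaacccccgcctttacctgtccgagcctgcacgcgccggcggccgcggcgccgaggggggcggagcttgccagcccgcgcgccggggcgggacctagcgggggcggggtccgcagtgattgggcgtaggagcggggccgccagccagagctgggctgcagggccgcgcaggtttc
BAX: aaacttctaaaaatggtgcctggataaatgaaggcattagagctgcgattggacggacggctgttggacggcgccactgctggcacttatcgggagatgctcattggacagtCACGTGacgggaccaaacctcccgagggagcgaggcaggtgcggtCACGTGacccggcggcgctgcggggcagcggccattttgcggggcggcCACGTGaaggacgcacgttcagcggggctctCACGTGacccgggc

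BCL2L11 carried its single FOXO motif 223 bases before the start, a motif found in 2.98% of the 35116 windows of all genes. BAX carried 4 E-boxes, 138, 93, 45 and 14 bases before the start. At least 1 E-box was found in 6.34% of all windows, and 4 or more in 0.0142% of them. Other matches in member windows were E-boxes of BBC3 and BID and the AP-1 motif of BBC3, which 6.57% of all windows held. The last 60 bases of the BAX window lie in exons of the count table's own annotation, and none of the BCL2L11 window does. These matches describe the windows, and binding was not measured.

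Among the pro-survival genes, BCL2 and BCL2L1 changed in opposite directions. BCL2, the founding member of the family on chromosome 18 of GRCh38 (63123346 to 63320128), was at 61.7 and 67.6 CPM in the siNC libraries and at 51.0 and 52.2 CPM in the siPRR11 libraries. The groups were apart, with 79.8% of the control mean remaining. This corresponded to a log2 fold change of -0.33 (SE 0.0803, edgeR adjusted p = 0.0168). This call was lost without either siPRR11 library, with adjusted p-values of 0.134 without library 1 and 0.0797 without library 2 from edgeR's test, and with limma on log2(RPKM + 1), where it was 0.122.

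BCL2L1, which encodes BCL-XL and, by alternative splicing, the pro-apoptotic BCL-XS, lies on chromosome 20 from 31664452 to 31723989. It was at 112.5 and 119.2 CPM in siNC and at 149.5 and 163.6 CPM in siPRR11. The groups were well apart, and the siPRR11 mean was 135% of the siNC mean. Its log2 fold change was 0.43 (SE 0.0775, edgeR adjusted p = 0.0029), and it passed 0.05 in all 12 alternatives. An antisense gene, ABALON, covers 43.0% of the exonic bases of BCL2L1, and these 1424 bases are 74.8% of its own. ABALON held 7534 and 5675 counts in siNC and 11411 and 11418 in siPRR11, and its log2 fold change was 0.42 (SE 0.0792). The paper describes a stranded library preparation, but whether reads were counted by strand is not given in the sources used here. The share of these reads that came from BCL2L1 thus cannot be told apart from that of ABALON. The splice forms of BCL2L1 are summed in the counts.

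MCL1, a short-lived pro-survival protein whose gene lies at 150574551 to 150579738 of chromosome 1, was the most even of the members. It was at 151.0 and 145.5 CPM in siNC and at 144.3 and 142.1 CPM in siPRR11. It had a log2 fold change of -0.05 with a 95% interval from -0.21 to 0.11 (edgeR adjusted p = 0.692), an interval that leaves out changes as large as those of BCL2 and BCL2L1. No alternative brought MCL1 past the threshold. Its protein is a known substrate of FBXW7, the ubiquitin ligase at the centre of the study, and the counts carry no information on protein stability.

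The effectors BAX and BAK1 were both higher on average in siPRR11 cells, and BAX passed the test. BAX (chromosome 19, 48954815 to 48961798) was at 63.9 and 63.4 CPM in siNC and at 78.9 and 81.1 CPM in siPRR11. The libraries of each group lay within a few CPM of each other, and the siPRR11 mean was 126% of the siNC mean. The log2 fold change was 0.33 (SE 0.074, edgeR adjusted p = 0.0102). Without a siPRR11 library the call was lost, with an adjusted p of 0.0537 without library 1 and 0.107 without library 2 from edgeR's test, while the log2 fold change stayed between 0.31 and 0.35.

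BAK1 was expressed at a much lower level than BAX. This gene on chromosome 6 (33572547 to 33580293) was at 4.58 and 4.71 CPM in siNC and at 5.68 and 6.52 CPM in siPRR11. Its log2 fold change of 0.39 was numerically above that of BAX, but its standard error of 0.135 was wider and it did not pass (edgeR adjusted p = 0.0679). The 95% interval ran from 0.10 to 0.69. The antisense gene GGNBP1 covers 4.11% of its exonic bases.

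The BH3-only genes diverged most. BBC3, the gene of PUMA, which binds all pro-survival proteins, lies on chromosome 19 from 47220822 to 47232766. It was at 11.3 and 12.6 CPM in siNC and at 18.3 and 18.4 CPM in siPRR11. The siPRR11 libraries nearly coincided, and their mean was 154% of the siNC mean. Its log2 fold change of 0.62 (SE 0.1, edgeR adjusted p = 0.00164) was the largest rise among the members, and it passed in all 12 alternatives, with values between 0.54 and 0.69.

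BCL2L11, the gene of BIM, which binds all pro-survival proteins and can activate BAX and BAK1 directly, lies on chromosome 2 from 111119378 to 111168447. It was at 9.89 and 8.38 CPM in siNC and at 12.8 and 13.8 CPM in siPRR11. Again both siPRR11 libraries were higher, by a margin wider than the spread within either group. The log2 fold change was 0.54 (SE 0.116, edgeR adjusted p = 0.00818), and it held without any single library, between 0.42 and 0.66. With limma on log2(RPKM + 1) it was 0.37 on that scale and missed the threshold (adjusted p = 0.0692).

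BIK, which encodes a BH3-only protein of the endoplasmic reticulum, went the other way. This small gene on chromosome 22 (43110748 to 43129712) held 62 and 34 counts in siNC and 23 and 18 counts in siPRR11, which is 0.759 and 0.586 CPM against 0.244 and 0.21 CPM. The siPRR11 mean was 33.8% of the siNC mean. Exact 95% Poisson intervals of the single libraries reached down to 0.406 CPM in siNC and up to 0.366 CPM in siPRR11. These intervals cover counting error only and take every count as an independent event. Whether both reads of a pair were counted is not given in the sources used here, and if they were, the intervals are too narrow. Its log2 fold change of -1.57 (SE 0.381, edgeR adjusted p = 0.0157) was the largest of the 10 in size and had the widest error. The adjusted p was 0.0676 without siNC library 1 and 0.0578 without siPRR11 library 2 from edgeR's test, and DESeq2 gave no adjusted p for a gene of this count. On the log2(RPKM + 1) scale the fall was -0.45, since the pseudocount is larger than the level of BIK itself.

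PMAIP1 and BID did not pass. PMAIP1, the gene of NOXA, which binds MCL1 and promotes its degradation, was at 18.1 and 23.3 CPM in siNC and at 25.5 and 24.4 CPM in siPRR11 (chromosome 18, 59899948 to 59904306). Its siNC libraries differed by more than the step from siNC library 2 to either siPRR11 library. Its log2 fold change was 0.27 with a 95% interval from 0.02 to 0.53 (edgeR adjusted p = 0.136), and it was 0.46 without siNC library 2 (adjusted p = 0.00216) and 0.10 without siNC library 1. The size of this difference therefore depended on which control library was kept. BID, which caspase-8 cleaves to link death receptors to mitochondria, was at 12.8 and 14.5 CPM in siNC and at 12.4 and 12.6 CPM in siPRR11 (chromosome 22, 17734138 to 17774770). Its log2 fold change was -0.13 with a 95% interval from -0.36 to 0.11 (edgeR adjusted p = 0.47).

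**Figure D2:**
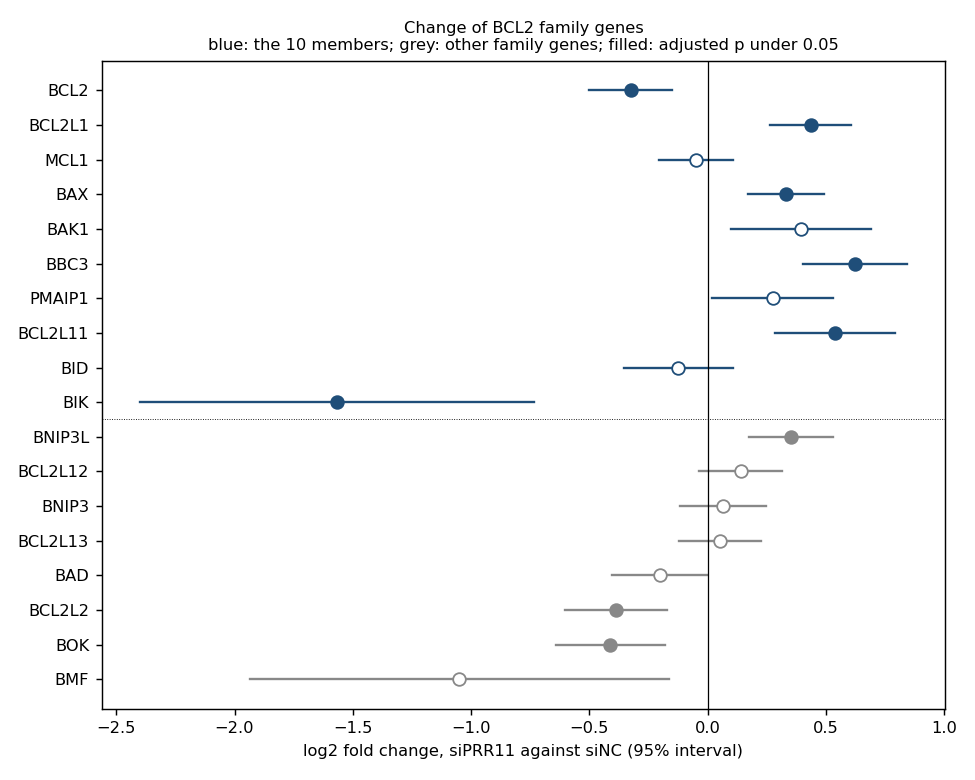
Log2 fold change of siPRR11 against siNC with its 95% interval for the 10 members (blue) and for the 8 other BCL2 family genes tested (grey); filled points have an adjusted p under 0.05. BBC3 at 0.62 is the highest and BIK at -1.57 the lowest, with the interval of MCL1 spanning 0.

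Levels were compared between genes per exonic length, in RPKM. In siNC cells BCL2L1 (34.4 RPKM) and MCL1 (33.3 RPKM) came first, and their libraries overlapped, so no order between them could be given. Here and in the ratios and sums below, the BCL2L1 values may include reads of ABALON. BAX followed at 24.2, then PMAIP1 at 9.1, BCL2 at 5.4, BBC3 at 3.69, BID at 3.02, BAK1 at 2.06, BCL2L11 at 1.35 and BIK at 0.694 RPKM, and no other neighbours in this order overlapped. BCL2L1, MCL1 and BAX thus made up most of the summed RPKM of the 10 genes, with 29.3%, 28.4% and 20.6%. In siPRR11 cells BCL2L1, at 45.9 and 50.1 RPKM, was apart from MCL1, at 33.6 and 33.0, while BID, at 2.85 and 2.87, and BAK1, at 2.61 and 2.99, overlapped. BBC3 and BCL2 changed places. BBC3, at 3.5 and 3.89 RPKM in siNC, was below BCL2, at 5.16 and 5.64, whereas in siPRR11 BBC3 at 5.87 and 5.86 was above BCL2 at 4.41 and 4.5. Exonic length counts every annotated exon, 11765 bases for BCL2 and 6658 for BCL2L11, so RPKM understates genes whose longest transcripts are rare in these cells.

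Balance between the groups was described by ratios within a library, which no scaling between libraries can move. The RPKM ratio of BAX to BCL2, a common summary of the balance between death and survival genes, was 4.71 and 4.27 in siNC against 7.04 and 7.07 in siPRR11. The size of this ratio depends on the exonic lengths, 2587 bases for BAX and 11765 for BCL2. The difference between groups in its mean log2, 0.65, was the same from counts. The siPRR11 libraries were higher and almost equal, and the mean log2 ratio rose from 2.16 ± 0.0996 to 2.82 ± 0.00446 (SD, n = 2 each). This rise rests on BCL2 as the denominator, which held 4.61% of the summed RPKM of the 10 genes in siNC, against 29.3% for BCL2L1. BCL2L1 rose more than BAX (log2 fold changes of 0.43 and 0.33), so BAX did not rise relative to BCL2L1. MCL1 to PMAIP1 was 4.27 and 3.19 in siNC and 2.89 and 2.98 in siPRR11, a difference of -0.33 in the mean log2 ratio that shrank to -0.12 without siNC library 1 and was -0.54 without siNC library 2. BCL2L1 to BCL2L11 was 22.9 and 28.6 in siNC against 23.5 and 23.8 in siPRR11, and the groups overlapped, both genes having risen. With 2 libraries against 2, an exact two-sided permutation test cannot go below p = 0.333, so these ratios are given as values without a test.

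Summed over roles, every group was higher in siPRR11 cells on the RPKM scale, which lacks the TMM factors. The pro-survival sum was 72.6 and 73.7 RPKM in siNC and 83.9 and 87.6 RPKM in siPRR11, a rise carried by BCL2L1. BAX and BAK1 summed to 26.3 and 26.2 RPKM against 33.6 and 34.8 RPKM. The BH3-only sum, in which PMAIP1 has the largest part, was 16.5 and 19.2 RPKM against 22.6 and 22.1 RPKM. The ratio of the BH3-only sum to the pro-survival sum was 0.228 and 0.26 in siNC and 0.269 and 0.253 in siPRR11, so the groups overlapped on this measure, and the difference in the mean log2 ratio was 0.10, which fell to 0.0013 without siNC library 1.

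**Figure D3:**
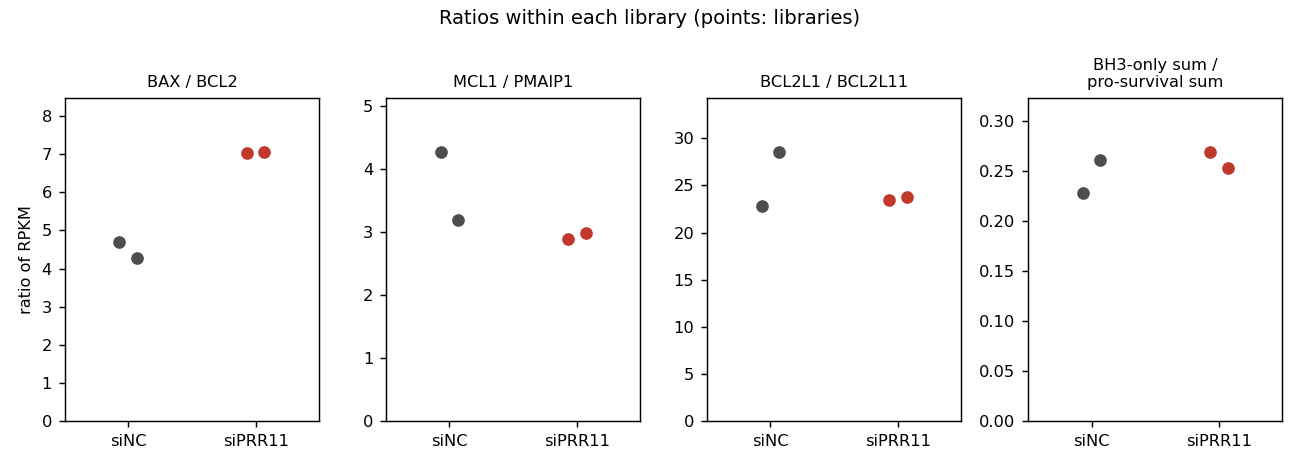
Ratios of RPKM within each library for 3 pairs of members and for the summed BH3-only over the summed pro-survival members, with 1 point per library and y axes that start at 0. BAX over BCL2 is near 7 in both siPRR11 libraries and under 5 in both siNC libraries, while BCL2L1 over BCL2L11 and the summed ratio overlap.

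Of 13 other genes of the family, 8 could be tested, 1 rose and 2 fell, with a median log2 fold change of -0.08. The share called was 37.5%, against 16.7% of all genes tested. BNIP3L, a mitophagy receptor, rose by 0.35 (SE 0.081), from 50.6 ± 3.03 to 64.7 ± 2.39 CPM. BCL2L2, the gene of the pro-survival protein BCL-W, fell by 0.39 on the log2 scale (SE 0.0987), from 47.7 ± 5.86 to 36.4 ± 2.42 CPM, so 2 of the pro-survival genes fell while BCL2L1 rose. BOK, a BAX-like gene, fell by 0.41 on the log2 scale (SE 0.106), from 19.9 ± 1.43 to 14.9 ± 1.5 CPM (SD, n = 2 each). Read-through transcripts to PABPN1 (BCL2L2-PABPN1) share 19.4% of the exonic bases of BCL2L2, on the same strand. They were at 183.9 ± 2.24 CPM in siNC and 160.0 ± 5.66 CPM in siPRR11 (SD, n = 2 each). Their log2 fold change was -0.20 (SE 0.0716, edgeR adjusted p = 0.0772). Whether the BCL2L2 counts include reads of these transcripts was not tested. The BH3-only genes BAD and BMF were at log2 fold changes of -0.20 and -1.05 and did not pass (edgeR adjusted p = 0.162 and 0.102). BMF was, like BIK, a rare transcript, at 0.661 and 0.431 CPM in siNC and 0.297 and 0.234 CPM in siPRR11. Calls were lost for BOK and BNIP3L without siPRR11 library 2 (edgeR adjusted p = 0.216 and 0.113) and for BCL2L2 without siNC library 2 (0.0563) or siPRR11 library 1 (0.137), and BMF passed without siNC library 2 (0.049).

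Downstream of the mitochondria, 2 of 10 genes of the caspases and the apoptosome passed, 1 higher and 1 lower, with a median log2 fold change of 0.19. This share of 20% was near the 16.7% of all genes tested. CYCS, which encodes cytochrome c, rose by 0.24 (SE 0.0694), and DFFB, the nuclease of apoptotic DNA laddering, fell by 0.51 on the log2 scale (SE 0.126). The initiator CASP9 and its platform APAF1 were at 0.38 and 0.19 and did not pass the quasi-likelihood test (edgeR adjusted p = 0.0616 and 0.155), while the edgeR exact test gave CASP9 an adjusted p of 0.0448 and the list 4 calls. PARP1, whose protein is cleaved by executioner caspases, was at 503.4 ± 6.09 and 452.6 ± 14 CPM (SD, n = 2 each), which is -0.15 on the log2 scale and did not pass (adjusted p = 0.162), and mRNA counts do not show cleavage. The call of CYCS was lost without siNC library 1 (edgeR adjusted p = 0.0531), siPRR11 library 1 (0.23) or siPRR11 library 2 (0.136), and that of DFFB without siPRR11 library 2 (0.154).

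Of 7 genes of proteins that leave or line the mitochondria, VDAC1 passed, a share of 14.3% against 16.7% of all genes tested. This outer membrane channel fell by 0.41 on the log2 scale (SE 0.0699, edgeR adjusted p = 0.00211), from 275.3 ± 0.35 to 206.7 ± 4.6 CPM. DIABLO, which encodes an antagonist of the inhibitor of apoptosis proteins and was named after its values had been seen, was at the threshold with -0.25 (SE 0.0786, edgeR adjusted p = 0.0506), and the list had 2 calls with DESeq2 or the edgeR exact test and 3 without siNC library 2. Among 7 inhibitors of apoptosis proteins, 1 rose and 1 fell (28.6%, against 16.7% of all genes), and 0 passed with limma on log2(RPKM + 1). BIRC3, an NF-kB target, rose by 0.83 (SE 0.212), with libraries far apart in both groups, at 35.3 and 23.6 CPM in siNC and 65.8 and 39.2 CPM in siPRR11. The rise was 0.41 on the log2 scale without siPRR11 library 1 and 1.16 without siPRR11 library 2. DESeq2 gave it an adjusted p of 0.211 in place of 0.0196, and limma on log2(RPKM + 1) gave 0.142. XIAP, a direct inhibitor of caspases, fell by 0.50 on the log2 scale (SE 0.115), from 26.3 ± 4.03 to 18.6 ± 1.56 CPM (SD, n = 2 each), and its adjusted p was 0.0594 without siPRR11 library 1 and 0.136 with limma on log2(RPKM + 1). BIRC5 (survivin) was at -0.13 and did not pass.

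The death receptor list, with 11 genes tested, had 3 rises and 1 fall, a share of 36.4% against 16.7% of all genes. FAS, which encodes the receptor of FAS ligand, was at 23.6 and 24.6 CPM in siNC and at 40.9 and 39.3 CPM in siPRR11, with a log2 fold change of 0.73 (SE 0.0849, edgeR adjusted p = 0.00021). TNFRSF10B, the TRAIL receptor DR5, rose by 0.62 (SE 0.103), from 62.2 ± 9.47 to 95.7 ± 7.58 CPM. The inhibitor of the same pathway, CFLAR (c-FLIP), rose as well, by 0.40 (SE 0.0921). TNFRSF1A fell by 0.31 on the log2 scale (SE 0.0959, edgeR adjusted p = 0.0476). The TRAIL receptor genes TNFRSF10A, TNFRSF10C and TNFRSF10D, named here after their values had been seen, were at 0.12, 0.32 and 0.10 and did not pass (edgeR adjusted p = 0.47, 0.237 and 0.534). Antisense exons of ACTA2 take up 10.1% of the exonic length of FAS. Without siPRR11 library 1 the adjusted p of CFLAR was 0.0594, and of the fits that leave out a library TNFRSF1A passed in the one without siNC library 2 alone, with adjusted p-values between 0.156 and 0.213 without any other library.

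None of the 7 genes known for the turnover of MCL1 protein passed in edgeR's quasi-likelihood or exact test or in DESeq2, against 16.7% of all genes in the first of these. With the replicate number as a block, 2 passed, 1 higher and 1 lower. In the quasi-likelihood test 2 of the 7 had an unadjusted p-value under 0.05, as did 6553 of the 21630 genes tested. FBXW7 was at 38.3 ± 3.68 and 37.8 ± 0.295 CPM and GSK3B at 43.5 ± 5.9 and 41.6 ± 1.28 CPM (SD, n = 2 each). Their log2 fold changes were -0.02 and -0.06, with 95% intervals from -0.21 to 0.18 and from -0.28 to 0.15, and both turned positive without siNC library 2. Of 8 transcription factors and regulators of BH3-only genes, 2 rose and 1 fell, a share of 37.5% against 16.7% of all genes. MDM2, a ubiquitin ligase, rose by 0.64 (SE 0.086, edgeR adjusted p = 0.000508), from 119.7 ± 12.9 to 186.9 ± 8.53 CPM. E2F1 rose by 0.54 (SE 0.15), a call lost without siNC library 1 (edgeR adjusted p = 0.0882) or siPRR11 library 2 (0.179). MYC fell by 0.89 on the log2 scale (SE 0.0901), from 77.3 ± 5.34 to 41.7 ± 3.85 CPM (SD, n = 2 each).

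**Figure D4:**
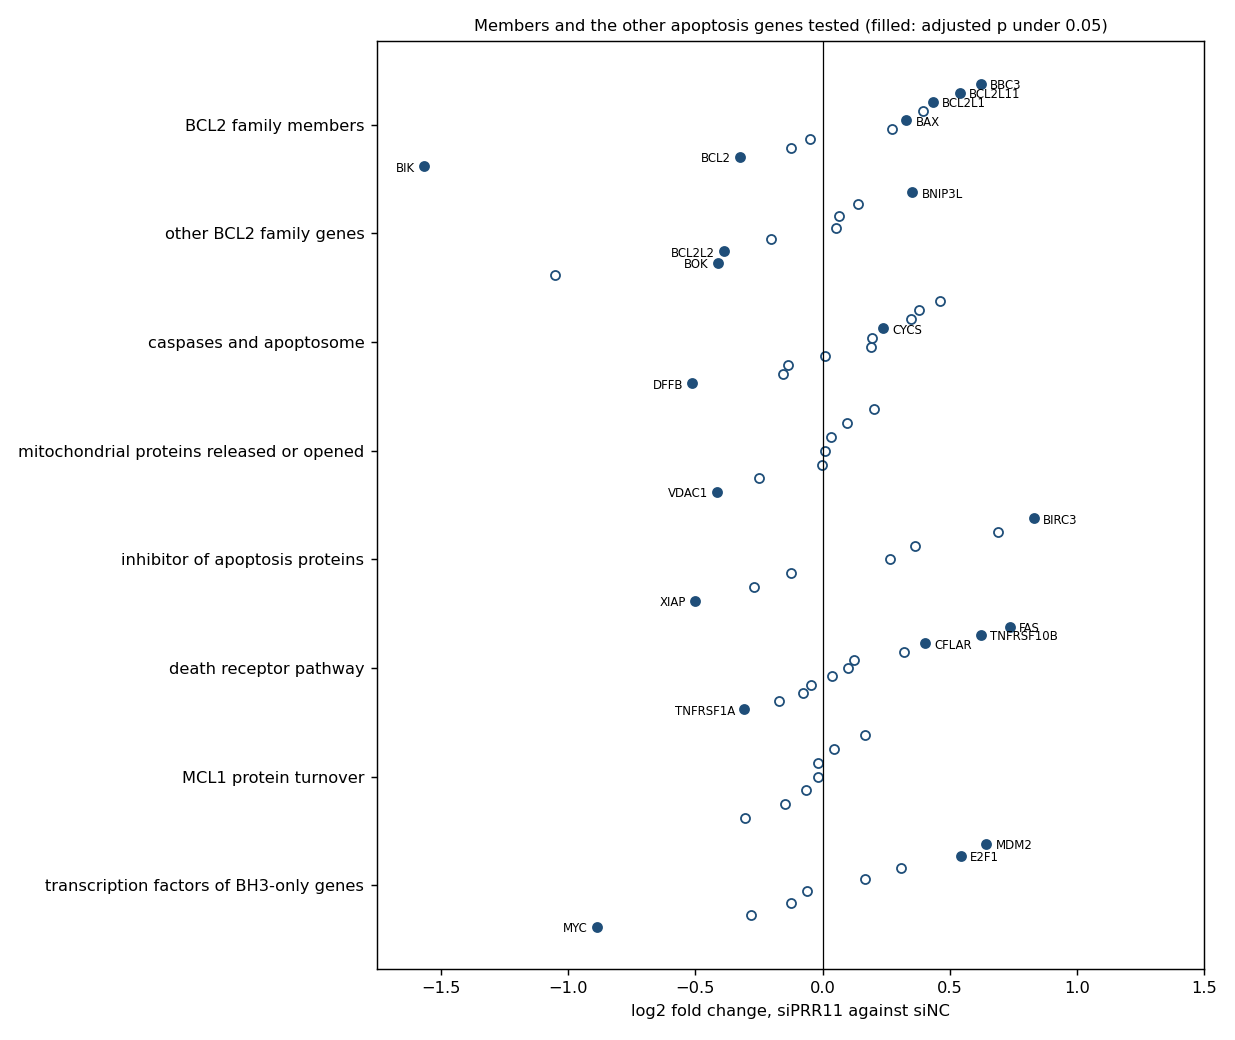
Log2 fold change of siPRR11 against siNC for the 10 members and for the 58 other apoptosis genes tested, in rows by list, with filled and named points for an adjusted p under 0.05. The members spread from BIK at -1.57 to BBC3 at 0.62, and BIRC3 at 0.83 is the furthest point to the right, a value that was 0.41 without siPRR11 library 1.

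Over the 7 lists outside the members, 15 of 58 genes tested passed (25.9%), 8 higher and 7 lower, with a median log2 fold change of 0.04. With limma on log2(RPKM + 1), 7 passed, and the calls of BOK, BCL2L2, DFFB, BIRC3, XIAP, CFLAR, TNFRSF1A and E2F1 were lost, with adjusted p-values between 0.0694 and 0.171. The members' share of 6 in 10 stood beside 16.7% of all genes and 23.1% of the better expressed genes defined above. The members and lists were put together by name with earlier results of these data known, some genes of the lists were left out, and they hold few genes. Their shares are therefore given as counts only.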

How the data were processed

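RNA-seq counts of 4 ACHN libraries were analysed, 2 of siNC and 2 of siPRR11, grouped by their labels. Per the paper's methods and the submitters' processing notes, the authors trimmed reads (Trimmomatic 0.36), mapped them with STAR to GRCh38 and assigned them to genes with featureCounts (Subread 1.5.1). The authors deposited raw read counts per gene without normalization and RPKM, computed over each gene's exonic length and the library total. The annotation release and the strand setting of counting are not given in the sources used here.

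edgeR 4.0.16 (R 4.3.3) was used on the counts with TMM normalization, filterByExpr and the quasi-likelihood test with condition as the only term, and p-values were adjusted by Benjamini-Hochberg over 21630 of 36359 genes, with 14729 left out for low counts. The standard error is the log2 fold change over the square root of F. With total counts of 59003839 to 92612749, the spread between libraries and not counting error set the precision except for rare transcripts such as BIK and BMF. Replicate counts varied beyond sampling noise (chi-square over its degrees of freedom 20.1 for siNC, 14.1 for siPRR11). Alternatives were RLE, DESeq2 1.42.0, the exact test of edgeR, 2 other filters, the replicate number as a block, limma 3.58.1 with a variance trend on log2(RPKM + 1) and log2(RPKM + 0.1), and each library left out. A fit without a library leaves a lone sample, which is assumed to vary like the other group. The fits were also run on simulated counts with the same dispersion for all genes and independent libraries. This setting is simpler than these data, so it does not give the error rates here. The members and gene lists were chosen with earlier results of these data known. Named genes are the members, PRR11, up to 3 rises and 3 falls past 0.05 per list, and a fixed set of well-known genes. Some genes of these lists are not reported here and were left out of the lists. ABALON, ADAMTSL4-AS1, BCL2L2-PABPN1 and the promoter motifs were chosen after values or windows had been seen.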

Additional observations from a re-analysis of the deposited data

How the results depend on the processing

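Of the 6 called members, BCL2L1 and BBC3 passed in all 12 alternatives, and no member changed direction in any of them. The number of members called was 4 with either limma fit, 5 with DESeq2 and between 3 and 7 without single libraries. Over all genes, 3622 were called, against 1775 and 1878 with limma on log2(RPKM + 1) and log2(RPKM + 0.1) and between 2172 and 4590 without single libraries, where fits without a siPRR11 library called the fewest. The share of calls that were higher was 45.4%, and 61.5% and 61.3% with limma, whose RPKM values lack the TMM factors. Among the apoptosis genes outside the members, 15 were called, 7 with either limma fit, and between 11 and 20 without single libraries.

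With the replicate number as a block, 6988 genes, 8 members and 30 of the other apoptosis genes were called, and BAK1 (adjusted p = 0.00479) and PMAIP1 (0.00183, both edgeR) were among the members. Deviations of the replicate 1 libraries from their group means correlated at 0.49 across 14193 genes, but no label says that a number marks a shared batch, so the numbers were not taken as pairs.

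Directions of genes without a call turned for FBXW7 (0.0251 and 0.0317 with the limma fits and between -0.116 and 0.0787 without single libraries) and GSK3B (between -0.199 and 0.0767 without single libraries). The log2 ratio of BCL2L1 to BCL2L11 differed by between -0.27 and 0.0466 without single libraries. The difference in the log2 ratio of the BH3-only to the pro-survival sum was 0.10 from RPKM, 0.21 from counts and between 0.0013 and 0.193 without single libraries. The cause of these shifts was not tested.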

Other observations

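Beside MCL1, whose level moved little, the annotated gene ADAMTSL4-AS1 was at 2.96 ± 0.297 CPM in siNC and 8.26 ± 0.616 CPM in siPRR11 (SD, n = 2 each), which is 1.48 higher on the log2 scale (SE 0.141, edgeR adjusted p = 5.7e-05). It lies on the same strand and shares 2 exonic bases with MCL1, and it was chosen after its values had been seen. In the GENCODE annotation MCL1 spans 150560895 to 150579738, whereas in the count table it begins at 150574551. Whether reads of ADAMTSL4-AS1 came from longer MCL1 transcripts was not tested.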
